A study of Mus musculus with 12 samples.

Results

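The replication-dependent histone genes of the mouse encode the H1, H2A, H2B, H3 and H4 proteins that package new DNA, and they lie in the Hist1, Hist2, Hist3 and Hist4 clusters. They were chosen by their symbols in GENCODE M21, and 70 of the 35580 genes summed from the deposited tables fitted the rule. At least 10 estimated counts in at least 2 libraries were found for 54 of them, and 16 did not reach this level. Poly(A)-selected mRNA was sequenced from WT and CIDEA KO mouse embryonic stem cells (ESCs), with 2 libraries in each of 6 groups, 12 altogether. The WT cells were unedited R1 ESCs, the parental line. CIDEA KO was a single clone (19.7) made from R1 by deleting the *Cidea* locus with CRISPR, so the genotype and other features of that clone cannot be told apart. In both genotypes, the 0 h cells were ESCs, which the paper describes as routinely grown on gelatine in 10% FBS with LIF. It also gives an alternative medium with LIF and inhibitors in place of FBS. The 24 h and 48 h cells were spheroids with 15% FBS and without LIF. For molecular experiments, the paper describes spheroids grown on a Matrigel coat in medium supplemented with Matrigel.

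Replication-dependent histone mRNAs are made in bulk during S phase, when new DNA has to be wrapped into nucleosomes. Their mRNAs normally end just after a conserved stem-loop, which is bound by SLBP, and carry no poly(A) tail. Some of the genes can also give longer, polyadenylated mRNAs, which are better known from cells that leave the cell cycle. A poly(A)-selected library therefore samples these genes incompletely, and the levels below are those of RNA that passed the poly(A) selection, not of total histone mRNA.

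The estimated counts summed to 29.0 to 38.5 M per library. A floor of 3 counts corresponded to 0.0779 to 0.1035 counts per M counts (CPM), which covers counting error only. *Cidea* had 20 to 117 counts in the 6 WT libraries and 0 in the 6 KO libraries, as the labels state. Markers of pluripotent cells summed to 2721 to 4583 transcripts per M (TPM, counts divided by transcript length) in every library, and fibroblast markers to 6.88 to 24.8 TPM. KO 24 h replicate 1 stood apart, with an expected 15185 genes detected at the smallest depth against 17329 to 19301 in the other libraries. The paper describes the RNA-sequencing samples of each group as independent and as biological replicates. It does not say whether they came from separate cultures, so p-values measure the spread between these libraries.

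The stem-loops of the 4 genes with the most counts among those with a match, and of the sole Hist4 gene, are shown because they mark where the canonical mRNA ends and where the annotated model runs on. Windows of 30 bases are printed 5′ to 3′ on the gene's strand (GRCm38, GENCODE M21), with the stem-loop in capitals. *Hist1h1c* is at chr13:23739505-23739534 (+), *Hist1h4i* at chr13:22040959-22040988 (−), *Hist3h2a* at chr11:58955165-58955194 (+), *Hist3h2ba* at chr11:58949342-58949371 (+) and *Hist4h4* at chr6:136803991-136804020 (−). Each lies in the single exon of its model.
Hist1h1c: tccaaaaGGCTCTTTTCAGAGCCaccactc
Hist1h4i: acttaaaGGCCCTTTTTAGGGCCaccacaa
Hist3h2a: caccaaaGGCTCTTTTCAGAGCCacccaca
Hist3h2ba: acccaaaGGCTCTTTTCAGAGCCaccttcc
Hist4h4: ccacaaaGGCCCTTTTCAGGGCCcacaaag

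The same 16 letters, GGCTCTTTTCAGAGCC, stood in the main model of 25 genes. The general pattern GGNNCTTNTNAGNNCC was found in at least 1 model of 46 of the 70 genes, and in 216 of 112275 other transcripts (0.192%). A missing match says only that these letters are not in the annotated model, since several models stop at the coding end. In *Hist1h1c* the model runs 840 bases past the stem-loop, in *Hist1h4i* 330, in *Hist3h2a* 1643, in *Hist3h2ba* 169 and in *Hist4h4* 2445.

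The ends of the first 4 of these models and of *Hist2h2be* are shown because a poly(A) signal there marks a transcript that poly(A) selection can keep. The signal AATAAA or ATTAAA, in capitals, was searched in the last 40 bases. The windows lie at chr13:23740334-23740363 for *Hist1h1c*, chr13:22040636-22040664 for *Hist1h4i*, chr11:58956791-58956820 for *Hist3h2a*, chr11:58949499-58949528 for *Hist3h2ba* and chr3:96223709-96223738 (+) for *Hist2h2be*, whose model holds no stem-loop match.
Hist1h1c: atgcttctAATAAAaagcgtttagttttca
Hist1h4i: ctgtttacATTAAAagtattctatgctaa
Hist3h2a: atgcccAATAAAataagagtacgtgtataa
Hist3h2ba: atggtattAATAAAtttggttcaattttgg
Hist2h2be: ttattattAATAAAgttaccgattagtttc

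Detection differed with the form of the annotated transcript. Of the 22 genes whose main model ends within 100 bases of the stem-loop, none reached 10 counts in all 12 libraries, and together they held 10.8% of the counts of the 70 genes. Of the 22 whose model runs further, 5 did so and held 45.9%. The 23 models without a stem-loop included 3 such genes (19.6% of counts), and the 3 spliced models included 2 (23.7%). A poly(A) signal was found in 15 main models, of which 6 were at 10 counts or more in all 12 libraries, against 4 of the 55 without one. Longer models collect more counts at the same number of molecules. The median of the mean TPM, which allows for length, was 0.642 in the extended models and 1.06 in those that end near the stem-loop, so the order of the forms was not the same by TPM as by counts.

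**Figure D1:**
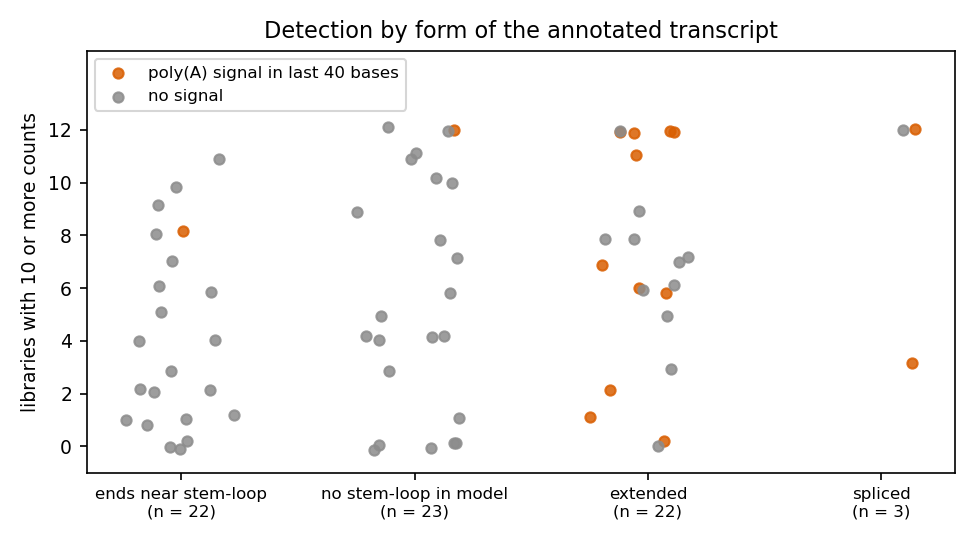
Each point is 1 of the 70 genes, placed by the form of its main annotated transcript (x axis) and by the number of libraries with 10 or more estimated counts (y axis, slightly jittered). Points at 12 are absent from the forms that end near the stem-loop, and 6 of the 10 genes at 12 carry a poly(A) signal (orange). The forms also differ in length and in sequence shared with other genes.

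A few genes made up most of the signal. *Hist1h1c*, which encodes the linker histone H1.2, held 22.3% of the counts of the 70 genes, and *Hist1h2bc*, an H2B gene, held 21.9%. *Hist1h4i* (H4, 4.83%), *Hist3h2a* (H2A, 4.36%) and *Hist3h2ba* (H2B, 2.59%) followed. At least 10 counts in every library were found for these 5 genes and for *Hist1h1d*, *Hist1h2ai*, *Hist1h2br*, *Hist1h2be* and *Hist2h2be*. Of the 54 genes kept, 38 were at 0 in at least 1 library. The median fold between replicates was 1.34 over the 10 genes counted in every library and 2.48 over the other 44 genes kept, so most single genes were measured imprecisely.

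By length-scaled level, *Hist1h2bc* (mean 21.7 TPM, range 15.2 to 28.6) and *Hist1h1c* (16.0 TPM, range 7.41 to 24.0) were the highest of the 70. Next to *Hist1h1c*, the H1 genes *Hist1h1a* (2.07 TPM) and *Hist1h1b* (0.548 TPM) were low. In H2A, *Hist1h2ah* (10.9 TPM), *Hist1h2af* (10.5 TPM) and *Hist1h2ai* (8.56 TPM) led, but the first 2 were each at 0 in at least 1 library. In H2B, *Hist1h2bq* (6.92 TPM) and *Hist1h2br* (6.79 TPM) came after *Hist1h2bc*, and their shared transcript of identical sequence leaves their split undefined. *Hist1h3h* (6.72 TPM), *Hist1h3g* (3.47 TPM) and *Hist1h3c* (2.21 TPM) led H3, and *Hist1h4i* (8.54 TPM), *Hist1h4k* (4.04 TPM) and *Hist1h4h* (2.46 TPM) led H4. The 70 genes together reached 132 to 217 TPM, whereas *H2afz*, which encodes the replication-independent variant H2A.Z, alone had 1047 to 1479 TPM.

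The question of the time course was how these genes behave as ESCs leave the LIF condition and form spheroids. Together the 70 genes had 70.4 and 67.5 CPM in the WT 0 h libraries, 77.2 and 63.8 at 24 h and 55.5 and 58.6 at 48 h. In CIDEA KO cells they had 76.9 and 73.3, then 87.0 and 78.3, then 50.3 and 61.8 CPM. The 4 libraries at 48 h (50.3 to 61.8 CPM) lay below the 8 others (63.8 to 87.0 CPM). No test was run on this sum, whose members were chosen with earlier results known.

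Against 0 h, most of the lower sum at 48 h lay in *Hist1h1c*. In WT cells the mean of the sum was lower by 11.9 CPM at 48 h than at 0 h, and that of *Hist1h1c* by 11.0 CPM (later minus earlier, −11.92 and −10.98). In CIDEA KO cells the differences were −19.05 and −13.65 CPM. Against 24 h it was not so, since *Hist1h1c* made up −6.22 of −13.45 CPM in WT (46.2%) and −7.19 of −26.64 CPM in KO (27.0%). Without *Hist1h1c* the 48 h libraries had 42.9 to 51.5 CPM and the others 44.6 to 70.7, so the ranges overlapped. On the log2 scale the sum at 48 h over 0 h was −0.27 in WT and −0.42 in KO, and without *Hist1h1c* it was −0.03 and −0.16. In TPM, where short models weigh more, the WT value turned to 0.02 and the KO value was −0.27.

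**Figure D2:**
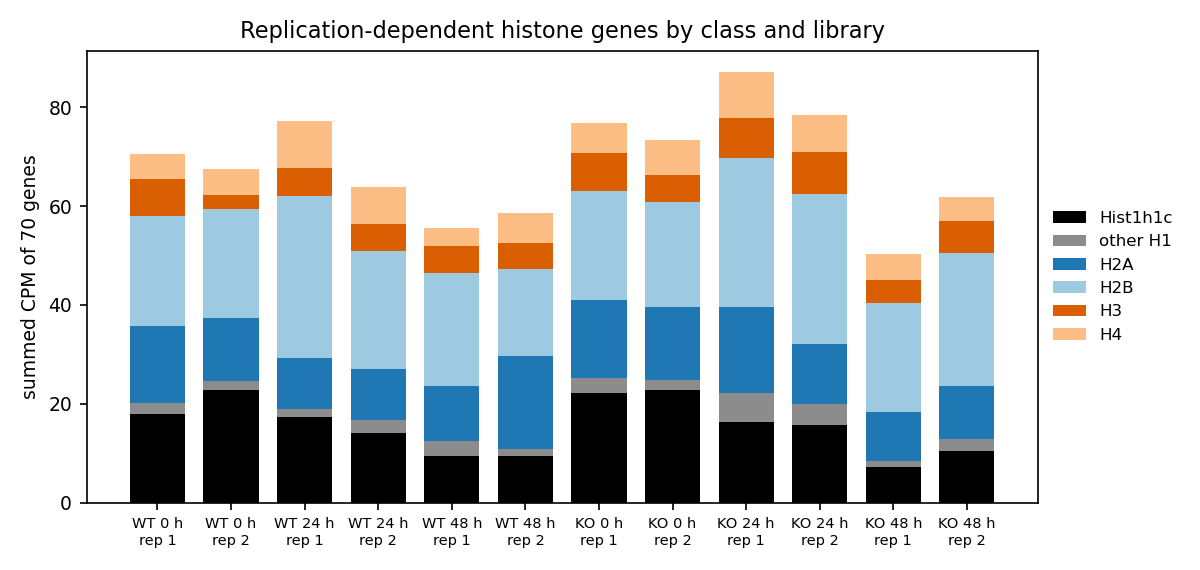
Bars give the summed CPM of the 70 genes in each of the 12 libraries (x axis), split into *Hist1h1c*, the other H1 genes and the H2A, H2B, H3 and H4 classes. The black segment is 17.9 to 22.9 CPM in the 0 h libraries and 7.32 to 10.4 CPM at 48 h, while the other segments overlap between 0 h and 48 h. In CPM, the H2B and H4 segments are largest at 24 h within each genotype. *Hist1h2bc* holds 60.9% of the H2B counts, and *Hist4h4* supplies 3.47 CPM of the H4 segment in KO 24 h replicate 1.

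The classes did not share this course. The H1 genes had 16.8 to 25.3 CPM at 0 h and 24 h and 8.34 to 12.9 CPM at 48 h, with no overlap, and *Hist1h1c* supplied 85.3% of their counts. The H2A genes had 10.2 to 17.4 CPM at the first 2 time points and 10.0 to 18.8 CPM at 48 h. The H2B genes had 21.1 to 32.8 and 17.6 to 26.9 CPM, the H3 genes 2.86 to 8.56 and 4.62 to 6.30 CPM, and the H4 genes 4.90 to 9.48 and 3.61 to 6.09 CPM. The last 4 classes overlapped between these time points. At 24 h alone, the H4 genes had 7.34 to 9.48 CPM, above the 3.61 to 7.02 CPM of the 0 h and 48 h libraries. In KO 24 h replicate 1, the library that stood apart, *Hist4h4* alone supplied 3.47 of the 9.17 CPM. In TPM the H4 sum of that library was 17.7, below the 20.9 and 24.6 of the KO 0 h libraries. KO 24 h replicate 2 had 27.3 TPM. The WT 24 h libraries had 34.6 and 27.0 TPM, against at most 23.5 in WT at 0 h and 48 h. The H2B genes at 24 h had 32.8 and 23.9 CPM in WT, against at most 22.8 CPM at 0 h and 48 h. In KO they had 30.1 and 30.2 CPM, against at most 26.9 CPM. *Hist1h2bc* supplied 60.9% of the H2B counts. In TPM the WT order did not hold, since WT 24 h replicate 2 had 48.7 and WT 48 h replicate 1 had 51.6. In KO the 24 h libraries had 69.9 and 75.0 TPM, against at most 61.4. No test was run on these class sums. By cluster, the 56 Hist1 genes on chromosome 13 had 45.4 to 54.5 CPM at 48 h against 56.5 to 75.1 before, while the 10 Hist2 genes had 1.25 to 3.08 against 2.33 to 3.78 and the 3 Hist3 genes 3.54 to 6.13 against 3.12 to 6.88.

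*Hist1h1c* (chr13:23738808-23740367, + strand, 1 exon) fell at 48 h in both genotypes. Its estimated counts in WT cells were 554 and 696 at 0 h, 577 and 499 at 24 h and 276 and 336 at 48 h. In CIDEA KO cells they were 642 and 664, then 554 and 540, then 282 and 303. The 48 h libraries were the lowest in both genotypes, and they did not overlap with the 0 h or 24 h libraries.

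Scaled to depth, *Hist1h1c* averaged 20.4 ± 3.51 CPM (SD, n = 2) in WT 0 h cells and 9.43 ± 0.0038 CPM in WT 48 h cells. In KO cells it averaged 22.5 ± 0.565 and 8.85 ± 2.16 CPM. The log2 fold change at 48 h over 0 h was −1.15 (SE 0.209) in WT, with an adjusted p of 0.000369 from edgeR's quasi-likelihood test, and −1.34 (SE 0.210) in KO, with an adjusted p of 6.22e-05. Over 20 alternative settings, including the removal of each library, it lay between −1.31 and −0.95 in WT and between −1.60 and −1.12 in KO. The adjusted p was at most 0.0101 and 0.00352 over these settings.

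The interaction term, KO minus WT change at 48 h, was −0.20 for *Hist1h1c* (SE 0.293, adjusted p = 1). The 24 h values lay between those of 0 h and 48 h. At 24 h over 0 h the log2 fold change was −0.42 in WT (SE 0.205, adjusted p = 0.204) and −0.51 in KO (SE 0.205, adjusted p = 0.0986), and neither passed the threshold of 0.05. From 24 h to 48 h it was −0.73 in WT (SE 0.208, adjusted p = 0.0342) and −0.84 in KO (SE 0.209, adjusted p = 0.0124).

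The calls between 24 h and 48 h were less firm. The WT call was lost without WT 24 h replicate 1 (adjusted p = 0.316) or 2 (0.0524), WT 48 h replicate 1 (0.188) or 2 (0.143), and KO 0 h replicate 1 (0.0544) or 2 (0.0554). It was also lost with length offsets (0.131) and with limma (0.0840). The KO call was lost without KO 48 h replicate 1 (adjusted p = 0.238), with length offsets (0.0691) and with the groups of the contrast alone (0.117). Without KO 24 h replicate 1, the library that stood apart, the KO value was −0.83 with an adjusted p of 0.0226 in edgeR.

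**Figure D3:**
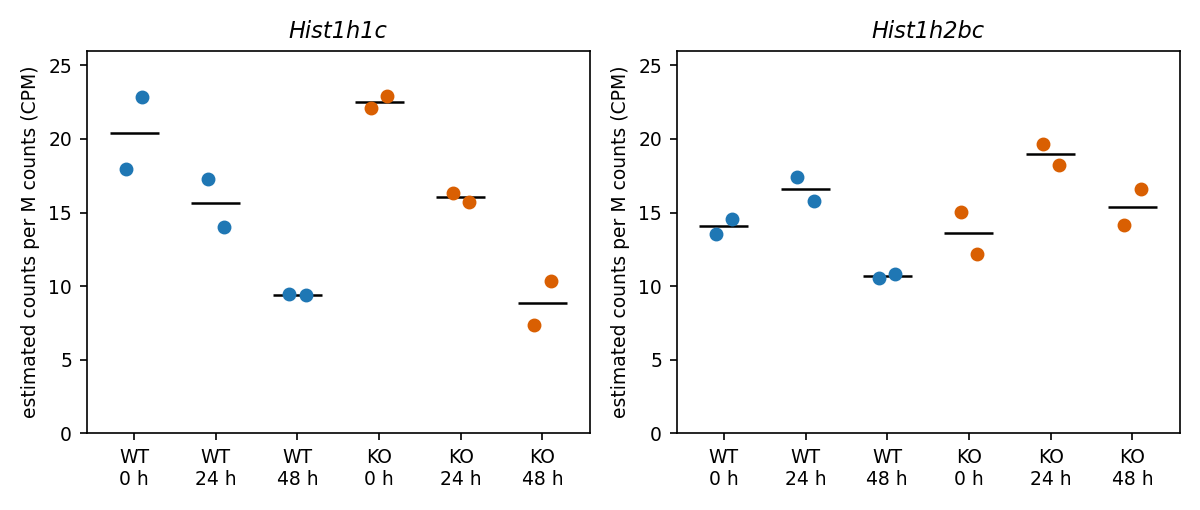
CPM (y axis) of *Hist1h1c* and *Hist1h2bc* in each library by genotype and time (x axis), with WT in blue, CIDEA KO in orange and the group mean as a bar. *Hist1h1c* is lowest at 48 h in both genotypes, from 7.32 to 10.4 CPM, whereas *Hist1h2bc* is highest at 24 h. At 48 h *Hist1h2bc* has 10.6 and 10.9 CPM in WT and 14.1 and 16.6 CPM in KO, a difference that edgeR did not call.

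*Hist1h2bc* (chr13:23684199-23692908, + strand), whose main model has 2 exons and no stem-loop match, followed another course. Its counts were 417 and 444 in WT 0 h cells, 583 and 562 at 24 h and 310 and 387 at 48 h. The KO counts were 436 and 353, 666 and 626, and 544 and 484. In both genotypes the 24 h libraries were the highest. From 24 h to 48 h it fell in WT by 0.63 on the log2 scale (SE 0.192, edgeR adjusted p = 0.0480), and the KO value was −0.28 (SE 0.190, adjusted p = 0.421). The WT call was lost without any 1 of 10 libraries, with adjusted p from 0.0502 to 0.297. It held without KO 24 h replicate 1 (0.0249) or 2 (0.0252). It was also lost with DESeq2 size factors in edgeR (0.0544), without a filter on low counts (0.0639), with length offsets (0.150) and with the replicate block (0.0578).

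At 48 h, *Hist1h2bc* had 10.6 and 10.9 CPM in WT and 14.1 and 16.6 CPM in CIDEA KO cells, with no overlap. The log2 difference, KO over WT, was 0.55 (SE 0.192), with a raw p of 0.0105 and an adjusted p of 0.356 over all genes in edgeR. The interaction at 48 h was 0.60 (SE 0.271, adjusted p = 0.826). It thus failed the correction, although it was higher in 2 of 2 KO libraries.

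Called members were few in every comparison. Of 55 members tested, 1 passed in WT at 24 h over 0 h, where 15.0% of all genes did, and 3 passed in WT at 48 h over 24 h (8.14% of all genes). In WT at 48 h over 0 h, 2 passed (23.6%). In CIDEA KO cells 0 passed at 24 h over 0 h (18.6%), 1 at 48 h over 24 h (9.93%) and 1 at 48 h over 0 h (25.0%). For the comparison with 0 calls, edgeR gave 6 members at an unadjusted p under 0.05 (10.9%, against 29.4% of all genes), and DESeq2 called 3. These shares lay below those over all genes, but the members were also measured less precisely. The median SE of the log2 fold change at 48 h over 0 h in WT was 1.92 over the members with a finite SE and 0.245 over all genes with one.

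The other calls involved near-identical genes or groups at 0. *Hist1h2af*, an H2A gene, had 38.6 and 107 counts in WT 0 h cells, 0 and 4.93 at 24 h and 52.5 and 160 at 48 h. In KO cells it had 68.6 and 41.5, then 39.3 and 17.0, then 70.8 and 27.4. Both WT 24 h libraries were below all others. The log2 fold change was −5.02 (SE 1.15, adjusted p = 0.00456) at 24 h over 0 h and 5.38 (adjusted p = 0.00497) at 48 h over 24 h in edgeR.

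Only 14.1% of the 31-base words of the *Hist1h2af* model occur in no other gene, and its words are shared with 19 other histone genes, so Kallisto had to divide most of its reads. The H2A class as a whole had 15.7 and 12.8 CPM at WT 0 h, 10.2 and 10.3 at 24 h, and 11.2 and 18.8 at 48 h. The summed level of the class, which includes *Hist1h2af*, was lowest at 24 h among the WT groups. Its log2 ratio of the mean CPM was −0.47 at 24 h over 0 h. The sum is therefore no independent check of that gene, and the class without *Hist1h2af* was not summed. Without WT 24 h replicate 1 both calls were lost (adjusted p = 0.0636 and 0.0729), and without WT 48 h replicate 2 the second was (0.0536). Without WT 24 h replicate 2, which leaves a lone library at 0, the fitted values moved to −9.28 and 9.64. At 24 h the difference of KO over WT was 3.46 (SE 1.11, adjusted p = 0.160) in edgeR, and DESeq2 called it (adjusted p = 0.0339).

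**Figure D4:**
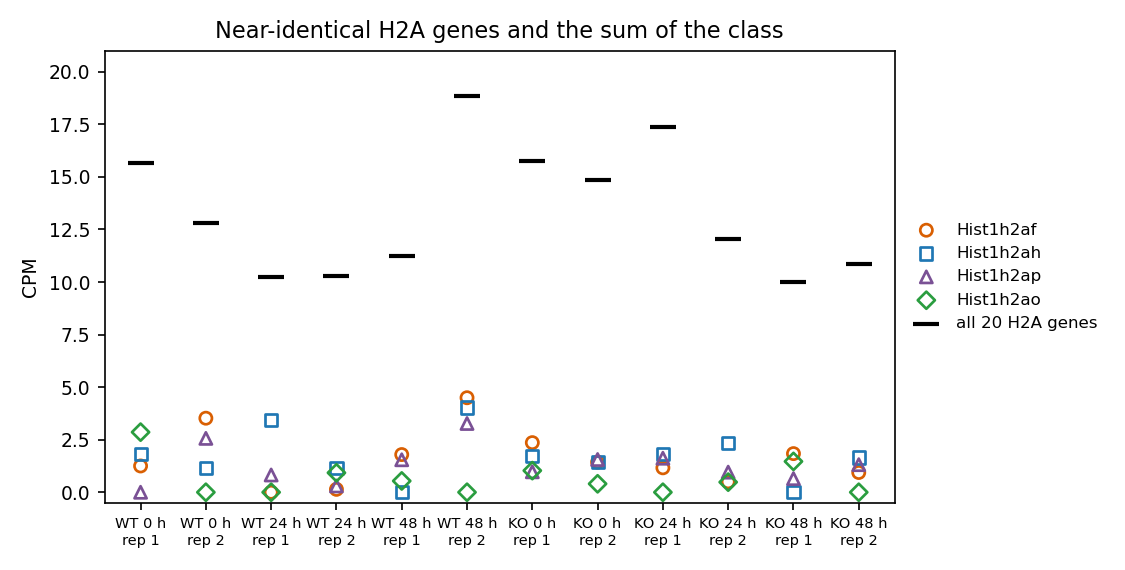
CPM (y axis) of 4 H2A genes with shared sequence and of the sum of all 20 H2A genes (black bars) in each library (x axis). Single genes drop to 0 in some libraries and reach 4.50 CPM in others, while the sum stays between 10.0 and 18.8 CPM.

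*Hist1h2bg*, an H2B gene with 43.7% of its 31-base words to itself, was at 0 in both WT 0 h libraries. It had 19.8 and 25.7 counts at WT 24 h and 46.2 and 11.1 at WT 48 h. In KO cells it had 12.5 and 4.63 counts at 0 h, 0 and 20.5 at 24 h, and 10.5 and 17.7 at 48 h. Against the floor of 3 counts per library, it was at least 9.65-fold higher at WT 48 h than at WT 0 h. Without WT 48 h replicate 1, which carried most of this level, the bound was 3.18-fold. The call (edgeR adjusted p = 0.0415) was lost without any 1 of 9 libraries, with adjusted p from 0.0505 to 0.199, and held without WT 48 h replicate 2 and without KO 24 h replicate 1 or 2.

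Over all members, 40 of 70 had less than 50% of their 31-base words to themselves, and *Hist2h2aa2* had none. *Hist1h1c* (88.6%), *Hist1h2bc* (65.5%), *Hist1h4i* (64.4%) and *Hist3h2a* (67.9%) were better separated. The whole of the *Hist3h2a* gene lies inside *Trim17* on the same strand, and *Hist1h2be* overlaps *Hist1h1e* by 496 bases, so reads there can be shared. Whether Kallisto was run with strand information was not given in the sources used here.

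The genes outside Hist1 were mostly low. *Hist3h2a* had 121 and 77.4 counts in WT 0 h cells and 93.5 and 103 at 48 h. In KO cells it had 143 and 136 at 0 h and 96.4 and 37.4 at 48 h, where the groups did not overlap. Its log2 fold change at 48 h over 0 h was −0.12 (SE 0.541, adjusted p = 0.924) in WT and −1.34 (SE 0.550, adjusted p = 0.0868) in KO by edgeR. The KO difference was called with the groups of the contrast alone (adjusted p = 0.0102) and without KO 24 h replicate 1 (0.0252) or 2 (0.0211). *Hist3h2ba* ranged from 18 to 125 counts and *Hist2h2be* from 10 to 50, and neither was called.

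*Hist4h4*, the sole Hist4 gene, had 117 counts in KO 24 h replicate 1 and at most 29.6 in the other libraries. That is the library that stood apart, and KO 24 h replicate 2 had 16.4. The other Hist2 genes kept, *Hist2h2aa1*, *Hist2h2aa2*, *Hist2h2bb*, *Hist2h3b*, *Hist2h3c1* and *Hist2h3c2*, were each at 0 in at least 1 library and reached at most 46.2 counts. None of them was called by edgeR as filtered here. *Hist2h3c2*, with 30.3 and 5.39 counts at KO 0 h and 0 in both KO 24 h libraries, had an adjusted p of 0.0759 there, and it was called without the filter on low counts (0.0319) and by DESeq2 (0.0128).

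*Hist1h1d*, the H1.3 gene, had a median fold of 1.18 between replicates. Its model of 7425 bases had 17.0 and 16.0 counts at WT 0 h, 40 and 29.8 at 24 h and 26.1 and 21.1 at 48 h. In KO cells it had 17.6 and 15.5, then 80.4 and 90.0, then 20.3 and 19.0. The KO 24 h libraries were the highest of all 12. The log2 fold change at KO 24 h over 0 h was 2.07 (SE 0.983, adjusted p = 0.168) in edgeR and did not pass, whereas DESeq2 gave 2.08 with an adjusted p of 0.0262.

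Between the genotypes no member was called. Of 55 members, 0 passed at 0 h, where 1.26% of all genes did, 0 at 24 h (1.46%) and 0 at 48 h (0.671%). In edgeR 3, 3 and 2 members had an unadjusted p under 0.05, or 5.5%, 5.5% and 3.6%, against 10.0%, 12.5% and 7.75% of all genes. DESeq2 called 0, 1 and 0. The interaction terms gave 0 at 24 h (0.0115% of all genes) and 0 at 48 h (0.0402%), and 0 by DESeq2. The unadjusted p in edgeR was under 0.05 for 7 members at 24 h (12.7%, against 5.91% of all genes). At 48 h it was so for 2 (3.6%, against 5.75%). For *Hist1h1c*, the best measured H1 gene, KO over WT was 0.13 (SE 0.204) at 0 h, 0.04 (SE 0.205) at 24 h and −0.07 (SE 0.210) at 48 h. With these errors, differences well above 1 SE could also go undetected, as did that of *Hist1h2bc* at 48 h, which failed the correction.

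The genes listed as replication-independent histone variants, most of which are transcribed throughout the cell cycle as ordinary polyadenylated mRNAs, were lower at the later times. Of 11 variants tested, 6 fell and 0 rose at WT 24 h over 0 h (54.5%, against 15.0% of all genes). At WT 48 h over 0 h, 8 fell and 0 rose (72.7%, against 23.6%). In KO cells 7 fell at 24 h over 0 h (63.6%, against 18.6%) and 8 at 48 h over 0 h (72.7%, against 25.0%), and 0 rose. Their median log2 fold change at 48 h over 0 h was −0.36 in WT and −0.39 in KO, against 0.01 to 0.02 over all genes tested. The variants are far more precisely measured than the members, with a median SE of 0.0923 in WT.

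*H1f0*, the linker histone H1.0, had 59.6 and 52.0 TPM at WT 0 h, 24.9 and 29.4 at 24 h and 20.9 and 20.3 at 48 h. In KO cells it had 74.9 and 82.1, 31.4 and 30.0, and 23.9 and 23.3 TPM. Its log2 fold change at 48 h over 0 h was −1.46 in WT (SE 0.119, adjusted p = 1.6e-08) and −1.68 in KO (SE 0.119, adjusted p = 1.5e-09) by edgeR. *H2afy*, which encodes macroH2A1, fell by 1.93 in WT and by 1.84 in KO on the log2 scale. *H2afz* fell by 0.36 and 0.34 and *H2afx*, which encodes the DNA damage variant H2A.X, by 0.51 and 0.52.

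The H3.3 genes differed from each other. *H3f3a* fell in WT at 48 h over 0 h by 0.36 (adjusted p = 0.000247), and the KO value was −0.17 (adjusted p = 0.0581). *H3f3b* fell by 0.28 in both genotypes. *H3f3b* was also higher in CIDEA KO cells at each time point. It had 750 and 780 TPM in WT and 913 and 964 in KO at 0 h, 696 and 679 against 903 and 824 at 24 h, and 590 and 602 against 735 and 718 at 48 h, with log2 differences of 0.28, 0.30 and 0.27 (edgeR adjusted p = 0.0296, 0.0165 and 0.0488). Among the histone chaperones, *Asf1a* alone was called between genotypes. This gene was lower in KO at each time point, by 0.62, 0.88 and 0.84. It was 1 of 24 tested (4.17%), against 1.26%, 1.46% and 0.671% of all genes in the same order. Whether its lower level reflects CIDEA loss or a different feature of the single KO clone was not tested.

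**Figure D5:**
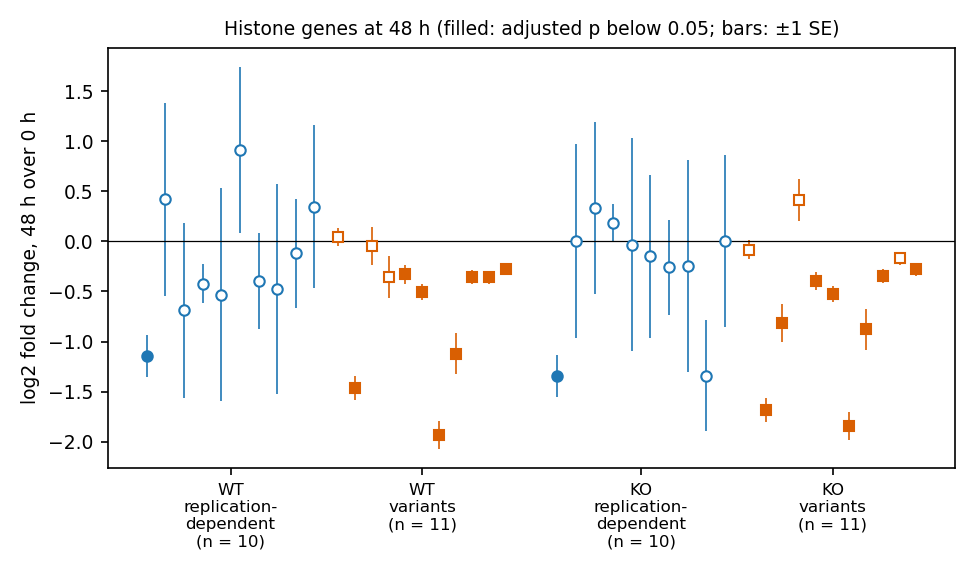
Log2 fold change at 48 h over 0 h (y axis, bars ±1 SE) of the 10 replication-dependent genes with 10 or more counts in every library (blue) and the 11 variants tested (orange), in WT and CIDEA KO. Filled symbols passed an adjusted p of 0.05. A single blue point is filled in each genotype, *Hist1h1c*, and 8 orange points are.

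Genes that make and process histone mRNA gave calls in both directions. Of 19 tested, 4 rose and 3 fell at WT 48 h over 0 h (36.8%, against 23.6% of all genes), and 4 rose and 2 fell in KO (31.6%, against 25.0%). *Slbp*, the stem-loop binding protein, had 84.1 to 107 TPM over the 12 libraries, and its log2 fold change at 48 h over 0 h was 0.12 in WT (SE 0.0870, adjusted p = 0.360) and 0.14 in KO (adjusted p = 0.277). *Npat*, a coactivator of histone genes, had 0.23 and −0.02, *Casp8ap2* −0.17 and −0.22, and *Eri1*, a nuclease that trims histone mRNA ends, 0.21 and 0.12, and none passed. *Zfp473*, a zinc finger protein of the processing complex, fell by 0.57 in WT and 0.62 in KO, and *E2f1*, an activator of S phase genes, fell by 0.48 and 0.58. Of 8 genes of histone mRNA decay tested, 1 rose and 1 fell in WT (25%, against 23.6% of all genes). In KO 2 rose and 1 fell (37.5%, against 25.0%). *Upf1* was higher by 0.31 in WT and 0.40 in KO, and *Dcp2* was lower by 0.56 in both.

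Of 43 S phase genes tested, 3 rose and 10 fell at WT 48 h over 0 h (30.2%, against 23.6% of all genes), and 6 rose and 6 fell in KO (27.9%, against 25.0%), so both shares were near those of all genes. Their summed TPM was 4873 to 4997 in the 4 libraries at 48 h and 5072 to 5670 in the 8 others. *Pcna*, the replication clamp, had log2 fold changes of 0.01 and 0.05 (adjusted p = 0.957 and 0.757). Of 22 genes of G2 and mitosis, 0 rose and 9 fell in WT (40.9%) and 1 rose and 7 fell in KO (36.4%), and their sum was 3081 to 3192 TPM at 48 h and 3452 to 3785 before. These sums were lower in the same 48 h libraries as *Hist1h1c*, and their part in its fall was not tested. Pluripotency markers summed to 2721 to 2897 TPM at 48 h and 3692 to 4583 before. Of 8 tested, 6 fell and 1 rose in each genotype (87.5%, against 23.6% of all genes in WT and 25.0% in KO). Mesendoderm markers summed to 11.3 to 13.6 TPM at 48 h and 4.99 to 8.85 before. Of 5 tested 1, *Eomes*, rose in each genotype (20%, against 23.6% of all genes in WT and 25.0% in KO). Mitochondrial-encoded mRNA summed to 80725 to 97968 TPM at 48 h and 50417 to 90414 before. Of 13 tested, 3 rose in WT (23.1%, against 8.14% of all genes) and 2 in KO (15.4%, against 9.93%) at 48 h over 24 h. The part of these lists in the change was not tested either. In bulk RNA, fewer cells in S phase and less RNA per cell cannot be told apart.

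Of the 24 chaperones that carry histones to DNA, 5 rose and 2 fell at WT 48 h over 0 h (29.2%, against 23.6% of all genes), and 10 rose and 2 fell in KO (50%, against 25.0%). *Nap1l1*, a chaperone of H2A and H2B, rose by 0.65 in WT and 0.90 in KO (edgeR adjusted p = 1.29e-06 and 1.27e-08).

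The 5 genes outside the histones whose CPM pattern over the 12 libraries was most like the sum of the 70, by Spearman's rho, were *Rnf10* (0.965), *Dock10* (0.958), *Fto* (0.951), *Mgmt* (0.951) and *Zfhx2* (0.951). The values are descriptions over libraries that share groups and times.

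The promoters of the members were searched in RefSeq (GRCm38.p6), which gave 250 bases before to 50 after the start for 61 of the 70. The octamer ATTTGCAT, on either strand, was found in 7 of 17 H2A and 6 of 16 H2B promoters, in 0 of 6 H1, 10 H3 and 12 H4 promoters, and in 1.75% of all 27025 promoters. CCAAT was found in every H1, H2A, H2B and H3 promoter, in 3 of 12 H4 promoters and in 37.9% of all promoters. The H1 box AAACACA was in 5 of 6 H1 promoters and 7.14% of all. These are matches of letters, and no readout here bears on the factors that bind them.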

How the data were processed

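Estimated counts and TPM per transcript were deposited by the authors, after adaptor trimming (Trimmomatic 0.33) and pseudoalignment (kallisto 0.43.1, per the submitters' processing notes). The deposited estimated counts are not scaled for depth. The deposited TPM values are divided by effective length. The transcript set was not given in the sources used here. The libraries were made with a poly(A)-selecting stranded mRNA kit. Of 115270 transcripts, 113580 (98.5%) matched GENCODE M21 (GRCm38). Counts were summed per gene and rounded, and CPM is counts per M summed counts. The main test was edgeR 4.0.16 under R 4.3.3. It used filterByExpr, TMM factors and robust quasi-likelihood fits of the 6 group means over the 12 libraries, and covered 17424 genes. P-values were adjusted by Benjamini-Hochberg over all genes, with a threshold of 0.05. SEs were taken as the log2 fold change over the square root of F, which is undefined for some low genes. The script was tested on simulated data. Correlations of same-numbered replicates between groups were −0.0486 to 0.0509, and the main test did not pair samples by number. Such values cannot show whether same-numbered samples were grown or processed together. Replicates differed by 11.16 to 32.66 chi-square per degree of freedom.

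The members and gene lists were chosen with earlier results of these data known. Named were the 3 genes of highest TPM per class, members called in a comparison, those outside Hist1, genes with notable sequence, and list genes. *Hist1h1d* was chosen after its values were seen. Alternatives used DESeq2 1.42.0, limma 3.58.1 on log2(TPM + 1), other filters, length offsets, the groups of a contrast alone, a replicate block and the removal of each library.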

Additional observations from a re-analysis of the deposited data

How the results depend on the processing

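*Hist1h1c* kept its call at 48 h over 0 h in both genotypes under the 20 alternatives run. The number of members called moved in the others. With DESeq2, 4 were called in WT at 24 h over 0 h, 4 at 48 h over 0 h, 3 in KO at 24 h over 0 h, 2 at 48 h over 24 h and 1 between genotypes at 24 h. Without a filter on low counts, 3 were called in WT and 3 in KO at 24 h over 0 h. With length offsets, 1 was called in WT at 48 h over 24 h, 1 at 48 h over 0 h and 0 in KO at 48 h over 24 h. With limma on log2(TPM + 1), 2 were called in WT at 24 h over 0 h, 5 at 48 h over 0 h, 3 in KO at 24 h over 0 h and 2 at 48 h over 24 h. With the groups of the contrast alone, 2 were called in WT at 24 h over 0 h, 1 at 48 h over 0 h, 0 in KO at 48 h over 24 h and 3 at 48 h over 0 h. The replicate block gave 2 in WT at 24 h over 0 h, where *Hist1h3b* was added, and 1 at 48 h over 0 h, where *Hist1h2bg* was lost; it also ended the call of *Hist1h2bc* in WT at 48 h over 24 h (adjusted p = 0.0578). These counts and those below are of members only, without the share of all genes called under the same setting. A change in them cannot be told apart from a change in calls over all genes. The cause of the moves was not tested.

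Leaving out each library gave 0 to 3 members in WT at 24 h over 0 h, 0 to 3 at 48 h over 24 h and 1 to 3 at 48 h over 0 h. In KO it gave 0 to 2 at 24 h over 0 h, 0 to 3 at 48 h over 24 h and 1 to 2 at 48 h over 0 h. It gave 0 to 2 between genotypes at 24 h and 0 to 3 for the interaction at 24 h, and the highest values came without KO 24 h replicate 2, which leaves the library that stood apart as the lone sample of its group. Its spread was then taken from the other groups.

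The log2 ratio of the summed level was 0.03 in WT at 24 h over 0 h, and it was 0.18 in TPM, 0.18 without *Hist1h1c* and −0.11 to 0.16 with each library left out (−0.11 without WT 24 h replicate 1). In WT at 48 h over 0 h it was −0.27, and it was 0.0200 in TPM, −0.0283 without *Hist1h1c* and 0.10 without *Hist1h1c* and *Hist1h2bc*. In KO at 24 h it was 0.14, and it was 0.27 in TPM, 0.34 without *Hist1h1c* and 0.29 without both. In KO at 48 h it was −0.42, and it was −0.16 without *Hist1h1c* and −0.58 to −0.28 with each library left out. The removal of *Hist1h1c* and of both genes was chosen after seeing the data. Low counts and shared sequence limit single genes, and 2 libraries a group limit every test.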
